A study of Mus musculus with 9 samples.

Results

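The genes described here are 38 enzymes and regulators that carry pyruvate, the citric acid cycle, branched-chain amino acids and ketone bodies into mitochondrial oxidation. They were chosen by function from a given list, 11 at the entry of pyruvate, 16 of the citric acid cycle with its dehydrogenase cores, and 11 at the entry of amino acids and ketones, out of 18193 genes with a probe set of their own on the array. All 38 lay above the level under which genes were left out, a mean MAS5 signal of 21.7.

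RNA came from cardiac ventricles of male mouse fetuses at E18.5, late in gestation. They carried 2 intact copies (WT, +/+), 1 (HET, +/-) or none (KO, -/-) of Esrrg, which encodes the orphan nuclear receptor ERRγ (estrogen-related receptor gamma). Each genotype had 3 Affymetrix expression arrays, named by the labels as biological replicates. The labels give no strain, no description of the deleted allele and no litter, and do not settle whether 1 array held RNA of 1 fetus or of 3, so that p-values cover only how far these arrays spread. The comparisons ask how these genes differ when both copies, or 1 copy, of Esrrg are lost.

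Pyruvate dehydrogenase sits at the gate between glycolysis and the citric acid cycle. Its E1 part is built from Pdha1 and Pdhb, its E2 part from Dlat and its E3 part from Dld, with Pdhx as the protein that holds E3 in place. Pyruvate dehydrogenase kinases (Pdk1 to Pdk4) switch the complex off by phosphorylation and phosphatases (Pdp1, Pdp2) switch it on again. The branched-chain keto acid dehydrogenase is built on the same plan from Bckdha, Bckdhb and Dbt and shares Dld with it. ERRγ is known to bind genes of mitochondrial energy metabolism. In adult heart muscle, which works without pause, mitochondrial oxidation supplies most of the ATP, whereas the ventricles here were fetal.

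The targeted gene followed the labels in its brightest probe set. The brightest Esrrg probe set read 281, 213 and 206 on the WT arrays, 162, 164 and 162 on the HET arrays and 58.3, 58.1 and 39.3 on the KO arrays (MAS5 signal per array). The genotypes did not overlap, and the KO mean was 22.2% and the HET mean 69.7% of WT. In limma's fit the KO minus WT difference was -1.88 ± 0.19 (log2 scale, SE, adjusted p = 0.00018). Exact two-sided permutation tests of each pair of genotypes gave p = 0.1, the smallest that 3 arrays against 3 allow.

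The arrays parted in a way that bears on every value below. The log2 ratio of the poly-A spike-in controls thr and dap lay between -1.031 and -0.822 on the WT arrays and HET replicate 1, and between -1.352 and -1.214 on HET replicates 2 and 3 and the KO arrays. These are called the first and second array set here. The labels name no batch, and because all WT arrays lay in the first set and all KO arrays in the second, genotype and array set cannot be told apart except through HET, whose first-set side is a single array. Differences are therefore also given with the array set as a block in the fit. With it, limma called 1 of 13028 genes between KO and WT (0.00768%) and none of the 38 members. Esrrg was not called with it either (-1.89, limma adjusted p = 0.168). The marker genes fixed for the cell types showed ventricular muscle on every array, with Myl2, a ventricular myosin light chain, between 25600.0 and 33300.0, and liver and lung markers at 66.3 or lower. Of the 4 ventricular markers 3 lay below 0 in KO minus WT and 1 above. That was Hey2 (0.86, or -0.24 with the block), and none of the 4 was called. Atrial markers were read too, with Myl7 between 8240.0 and 12500.0. The 4 atrial markers summed to 17957 to 23217 in WT, 19877 to 22048 in HET and 18211 to 23229 in KO. In KO minus WT 2 of them lay below 0 and 2 above, with 0 called. The 9 cardiomyocyte markers, of which 1 was called lower in KO (Mb, the oxygen store myoglobin, -0.37 ± 0.07, or -0.10 ± 0.10 with the block), had a summed signal of 168099 to 178910 in WT, 150643 to 169285 in HET and 148023 to 160657 in KO. The 6 fibroblast markers summed to 30981 to 35937 in WT, 30712 to 35775 in HET and 35046 to 36275 in KO, with 0 called in limma's fit, and the 5 epicardial markers to 560 to 920, 1044 to 1223 and 786 to 1162, with 1 called higher. The 7 endothelial markers summed to 4463 to 5105, 4129 to 4925 and 4233 to 4723. Of these Kdr, a receptor for vascular endothelial growth factor, was called lower in KO (-0.74 ± 0.14, limma adjusted p = 0.0262, 59.3% of WT), with -0.25 in the block fit. The endothelial list as a whole did not follow Kdr, with 4 below 0 and 3 above. Its median KO minus WT difference was -0.03, or 0.18 with the block. The median of the cardiomyocyte markers was -0.17, or 0.01 with the block. The muscle sum of every KO array was thus below that of every WT array, and the part of this in the results on the members was not tested. In such bulk samples fewer cells of a type and less RNA per cell cannot be told apart.

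Between KO and WT, 2 of the 38 members were called (5.26%), and both fell in KO. They were Pdp1, a phosphatase that switches pyruvate dehydrogenase on, and Pdhb, a subunit of its E1 part. Over all 13028 genes tested, 1.62% were called (211 genes, 115 lower and 96 higher), 0.883% lower and 0.737% higher. After a shift of every array to a common median over the genes tested, 154 were lower and 82 higher, and the members called were the same pair. Without regard to the test, 27 members lay below 0 and 11 above, with a median of -0.11 on the log2(signal + 16) scale and a range from -0.74 to 0.33. All genes tested had a median of -0.01 and 51.6% of them lay below 0. At an unadjusted p under 0.05 stood 11 members (28.9%) and 17.2% of all genes. The KO arrays lay wholly below the WT arrays for 11 members (28.9%), against 13.9% of all genes, and wholly above for 4 (10.5%), against 11.1%, or 15 (39.5%) and 25.0% in either direction. With the array set as a block, 24 members lay below 0 and the median was -0.04, beside 47.5% of all genes and a median of 0.02. Pdhb, Pdk2 and Pdp1, 3 members (7.89%), were then lower at an unadjusted p under 0.05, as were 3.04% of all genes. The sign of KO minus WT turned with the block for 17 of the 38 members (44.7%), 8 of them in the citric acid cycle, and for 37.3% of all genes. The calls depended on single arrays, among all genes as among the members. Without WT replicate 2, WT replicate 3 or any 1 of the KO replicates no member was called, beside 0.0768% to 0.146% of all genes. Without WT replicate 1 only Pdp1 was, beside 0.606% of all genes. Without HET replicate 1 there were 5 members, beside 6.45% of all genes.

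**Figure D1:**
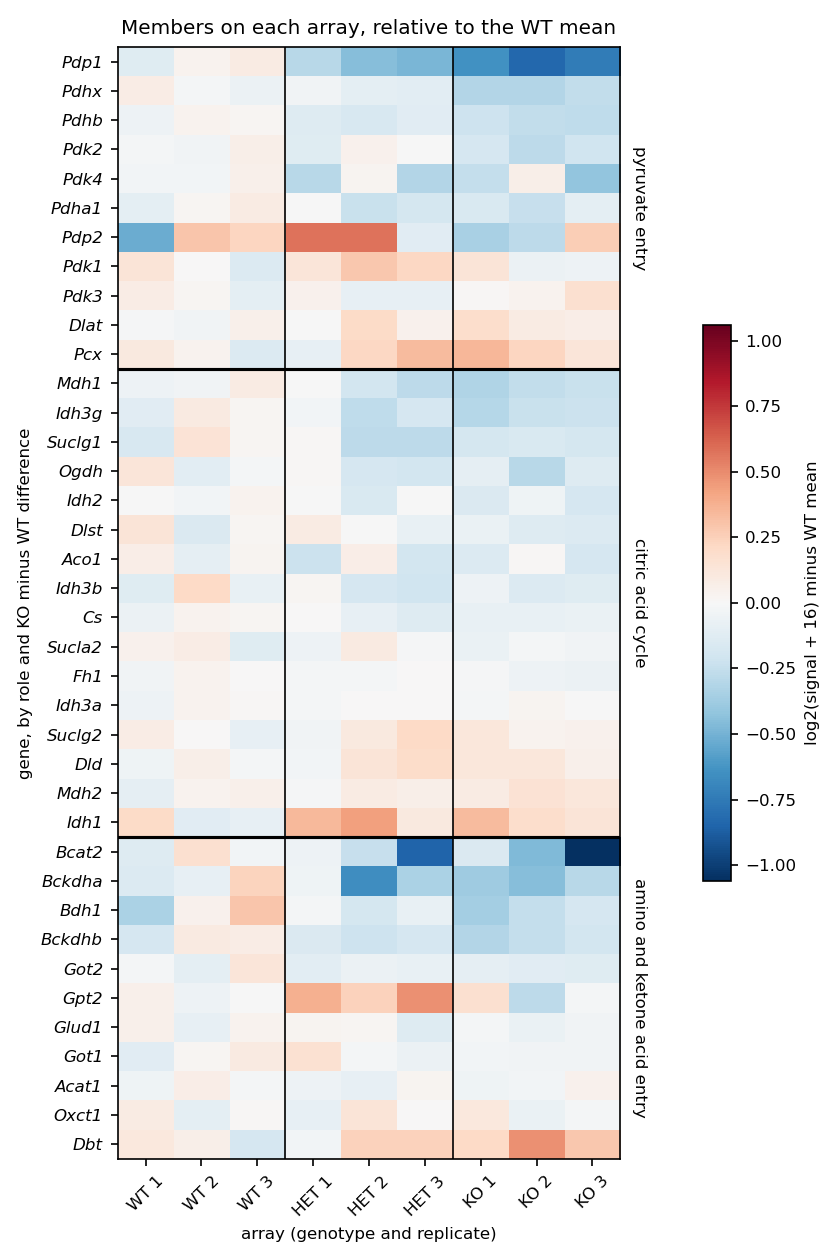
The log2(signal + 16) of each of the 38 members (rows, by role and by KO minus WT difference) on each of the 9 arrays (columns), minus that gene's WT mean; blue is lower and red is higher than the WT mean. Pdp1, Pdhx and Pdhb, at the top of the pyruvate group, are blue on every KO array, while Mdh1 and Idh3g, at the top of the cycle group, are about as low on HET replicates 2 and 3 as in KO and near the WT mean on HET replicate 1.

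Among the 11 genes of pyruvate entry the median KO minus WT difference was -0.17, with 7 below 0, and -0.13 with the array set as a block. Pdp1 read 265, 298 and 310 on the WT arrays, 234, 208 and 202 on the HET arrays and 181, 156 and 167 on the KO arrays. Every HET array was below every WT array, and every KO array below every HET array. The means were 291 ± 23.3, 215 ± 16.7 and 168 ± 12.5 (SD, n = 3 each), so that KO held 57.8% and HET 73.8% of the WT signal. The KO minus WT difference was -0.74 ± 0.14 (limma adjusted p = 0.0262, 95% interval -1.03 to -0.45). With the array set as a block it was -0.56 ± 0.24 and not called (limma adjusted p = 0.782). The HET minus WT difference of -0.41 was not called either (limma adjusted p = 0.32).

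Pdhb, which with Pdha1 forms the part of the complex that takes up pyruvate, read 10567.6, 11256.8 and 11148.3 on the WT arrays, 10020.4, 9771.2 and 10136.1 on the HET arrays and 9413.4, 9189.1 and 9088.6 on the KO arrays. The genotypes again followed one another without overlap, WT above HET above KO. The KO mean was 84.0% and the HET mean 90.8% of WT. The KO minus WT difference was -0.25 ± 0.06 (limma adjusted p = 0.0386) and -0.24 ± 0.08 with the array set as a block (limma adjusted p = 0.764). Among all genes tested, 0.453% had every WT array above every HET array and every HET array above every KO array, and Pdp1 and Pdhb were the 2 members that did. The reverse order was seen for no member and for 0.284% of all genes.

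The promoter of Pdhb is shown because it belongs to the called gene for which a sequence was at hand. It is the stretch of 250 bases before the start of Pdhb in RefSeq, GRCm38.p6, chr14:8172993-8173242, minus strand, read 5′ to 3′ with the letters of GGGCGG, the GC box, and of CCAAT, here found only as its reverse complement ATTGG, in capitals.
Pdhb: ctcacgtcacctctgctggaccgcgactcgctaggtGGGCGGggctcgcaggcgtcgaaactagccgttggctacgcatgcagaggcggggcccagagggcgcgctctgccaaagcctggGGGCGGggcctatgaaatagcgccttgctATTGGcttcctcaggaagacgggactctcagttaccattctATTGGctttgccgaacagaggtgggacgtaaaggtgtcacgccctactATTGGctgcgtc
The stretch holds GGGCGG 2 times and CCAAT 3 times. RefSeq windows of 250 bases before to 50 after the start were matched for 34 members, 46 windows in all, and those of Pdp1, Idh3a, Dbt and Acat1 were not analysed here. Searched on both strands, GGGCGG was in 56.5% of the members' windows and in 35.7% of all 32851 windows, and CCAAT in 54.3% and 37.4%. The element that estrogen-related receptors bind, written TNAAGGTCA with N as any base, was in 0 of the 46 windows and in 1.28% of all windows. Its shorter core AAGGTCA, which also counts every TNAAGGTCA, was in 2 of the 46 (4.35%) and in 4.72% of all. A match describes letters in these windows only. The matches to the core are shown because they were the members' only ones, at chr11:6292155-6292181, plus strand, where the core reads on the opposite strand as TGACCTT, and at chr19:43524834-43524855, minus strand, with the core in capitals.
Ogdh: gacacggcgcTGACCTTggtgcctgcg
Got1: cccagAAGGTCAggaggttgtc
Neither gene was called, with KO minus WT differences of -0.17 for Ogdh and -0.03 for Got1.

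The remaining parts of pyruvate dehydrogenase lay on both sides of 0, and none was called. Pdhx, the E3-binding protein, read 1345.2, 1252.0 and 1216.7 on the WT arrays, 1239.8, 1182.4 and 1174.0 on the HET arrays and 1022.8, 1022.6 and 1058.2 on the KO arrays. The KO arrays lay below all others, at 81.4% of the WT mean, while WT and HET overlapped. The KO minus WT difference of -0.29 ± 0.08 did not pass (limma adjusted p = 0.0812; -0.22 with the block), nor did the KO minus HET difference of -0.21 (limma adjusted p = 0.989). Pdha1, the other E1 subunit, gave -0.17 and 0.04 with the block, neither called. Its dimmer probe set gave -0.24, with KO arrays at 3944.9 to 4165.7 wholly below WT arrays at 4610.9 to 5149.5. That was not called in the fit of each probe set on its own (limma adjusted p = 0.149). In this probe set HET replicates 2 and 3 differed from HET replicate 1 by -0.25.

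Dlat, the E2 core, lay on the other side of 0. Its brightest probe set read 2142.4, 2097.8 and 2236.8 on the WT arrays, 2150.6, 2485.7 and 2231.1 on the HET arrays and 2454.8, 2290.0 and 2262.9 on the KO arrays, a difference of 0.11. A second probe set gave 0.24 and the dimmest, with 625, 601 and 640 on the WT arrays, 700, 752 and 766 on the HET arrays and 848, 736 and 807 on the KO arrays, gave 0.35 ± 0.10. In all 3 probe sets of Dlat every KO array was above every WT array, and none was called (limma adjusted p = 0.0925 for the dimmest in the fit of each probe set on its own). Dlat was singled out after its values were seen. Its brightest probe set gave -0.02 with the array set as a block.

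The kinases that switch the complex off were not called in any comparison. Pdk2 read 1046.0, 1032.3 and 1105.6 on the WT arrays, 967, 1092.8 and 1055.2 on the HET arrays and 938, 872 and 914 on the KO arrays, and was singled out after its values were seen. Every KO array lay below every WT and HET array, at 85.5% of the WT mean. The difference was -0.22 (limma adjusted p = 0.196) and -0.37 with the array set as a block. Pdk4, known as the isoform that responds to fasting and fat, gave -0.20 with overlapping arrays (-0.36 with the block), Pdk1 gave 0.01 and Pdk3 0.07. Pdp2, the other phosphatase, ranged from 57 to 113 in WT alone and gave -0.12, within its spread. Pcx, pyruvate carboxylase, which feeds pyruvate to oxaloacetate, gave 0.24 with KO arrays all above WT and -0.13 with the block. The direction of Pdha1, Dlat, Pdk1, Pdp2 and Pcx thus turned with the block, while that of Pdp1, Pdhb, Pdhx, Pdk2, Pdk3 and Pdk4 did not.

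**Figure D2:**
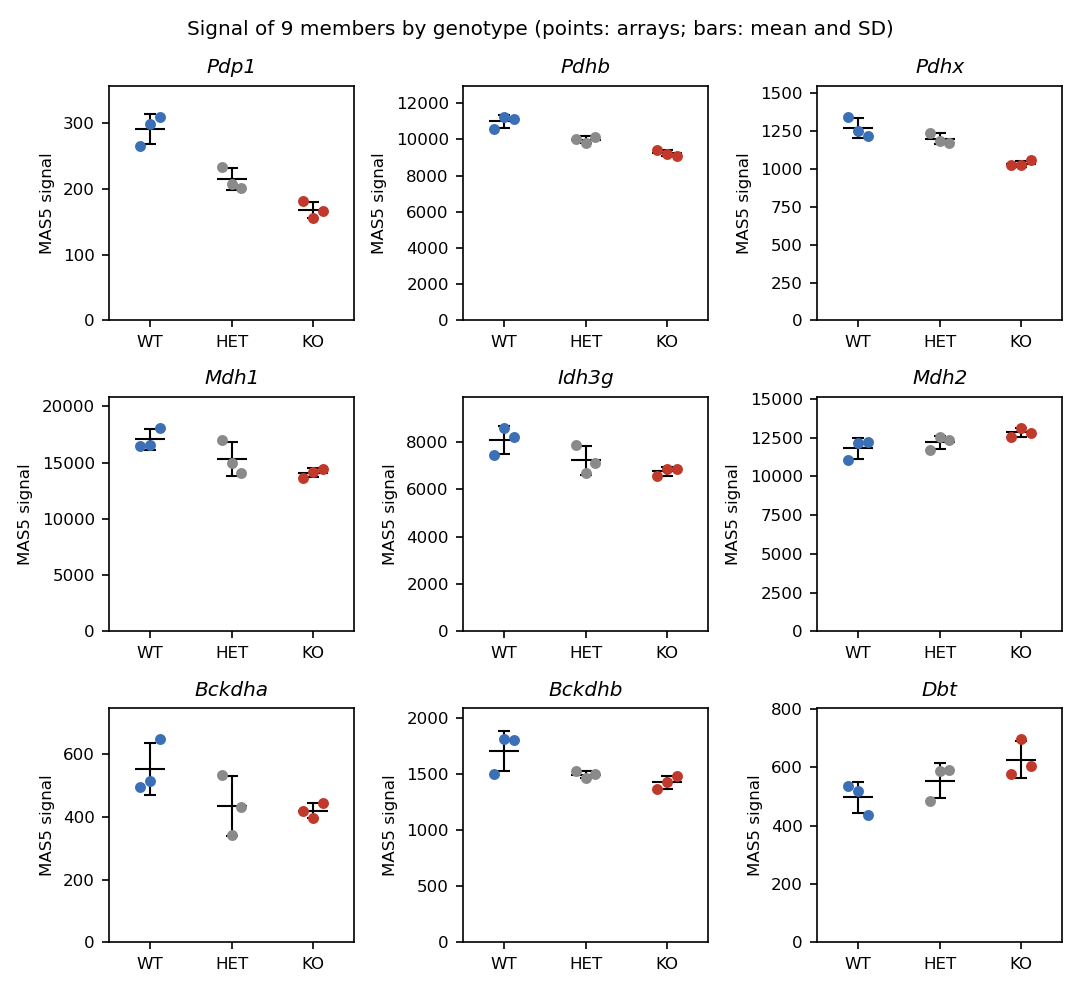
MAS5 signal (linear, axis from 0) of 9 members by genotype, the 3 of each role with the smallest KO minus WT p; points are the 3 arrays of a genotype, from replicate 1 at the left to 3 at the right, and bars the mean and SD. Pdp1 falls from 291 in WT to 215 in HET and 168 in KO without overlap and Pdhb from 10990.9 to 9230.4, while in Mdh1 the HET arrays spread from 14043.2 to 17018.2.

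No member of the citric acid cycle was called between KO and WT. Of the 16, 11 lay below 0, with a median of -0.09, or -0.03 with the array set as a block. KO arrays lay wholly below WT arrays for 4 of the 16 (25.0%, beside 13.9% of all genes) and wholly above for 1 (6.25%, beside 11.1%). Mdh1, the cytosolic malate dehydrogenase of the malate-aspartate shuttle, read 16456.3, 16607.3 and 18119.2 on the WT arrays, 17018.2, 14927.2 and 14043.2 on the HET arrays and 13660.2, 14183.3 and 14461.1 on the KO arrays. KO lay below WT without overlap, and HET replicate 1 was at the WT level while the other HET arrays were near KO. The KO minus WT difference of -0.27 ± 0.07 did not pass (limma adjusted p = 0.0591), and with the block it was -0.04 ± 0.09. The KO minus HET difference was -0.12. Another Mdh1 probe set, nearly as bright, gave 0.02 between KO and WT.

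Idh3g, the gamma subunit of the NAD-dependent isocitrate dehydrogenase, read 7438.2, 8596.4 and 8188.6 on the WT arrays, 7875.0, 6676.2 and 7109.2 on the HET arrays and 6537.1, 6849.3 and 6863.3 on the KO arrays. Its pattern was like that of Mdh1, with KO wholly below WT and HET replicate 1 among the WT arrays. The difference of -0.26 ± 0.07 did not pass (limma adjusted p = 0.086), and the block brought it to -0.06. The partner subunits Idh3a and Idh3b gave 0.00 and -0.11, and -0.02 and 0.11 with the block.

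Mdh2, the mitochondrial malate dehydrogenase, was on the opposite side. It read 11049.7, 12124.4 and 12229.6 on the WT arrays, 11710.5, 12534.2 and 12324.7 on the HET arrays and 12547.0, 13150.0 and 12824.7 on the KO arrays, and every KO array was above every other array. The difference of 0.12 ± 0.06 was not called (limma adjusted p = 0.30, and 0.04 with the block). Another Mdh2 probe set, nearly as bright, gave 0.14 with overlapping arrays, 9183.0 to 12608.1 in WT and 10692.4 to 13148.8 in KO. Idh1, the cytosolic NADP-dependent isocitrate dehydrogenase, read 778, 622 and 635 on the WT arrays, 861, 917 and 727 on the HET arrays and 858, 769 and 743 on the KO arrays. Its groups overlapped, and HET minus WT was 0.29 (limma adjusted p = 0.371) and KO minus WT 0.22.

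The entry enzyme Cs, citrate synthase, had KO arrays at 9865.4 to 9946.7 just below the WT arrays at 9984.7 to 10724.0, a difference of -0.07. Idh2, the mitochondrial NADP-dependent isocitrate dehydrogenase, had the same order with -0.13. Ogdh and Dlst, the E1 and E2 parts of the oxoglutarate dehydrogenase, gave -0.17 and -0.12, and Dld, the E3 part shared by all 3 complexes, 0.10. With the block these turned to 0.03, 0.01 and -0.10. Suclg1, the alpha subunit of succinyl-CoA ligase, gave -0.18 and its partners Sucla2 and Suclg2 -0.04 and 0.07. The block gave 0.11 for Suclg1, -0.14 for Sucla2 and -0.12 for Suclg2. Fh1, fumarase, gave -0.04, and Aco1, the cytosolic aconitase that also acts as an iron sensor, -0.11 (-0.06 and -0.27 with the block). The groups overlapped in all of these but Cs and Idh2, and with the block Cs was 0.04 and Idh2 -0.05.

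**Figure D3:**
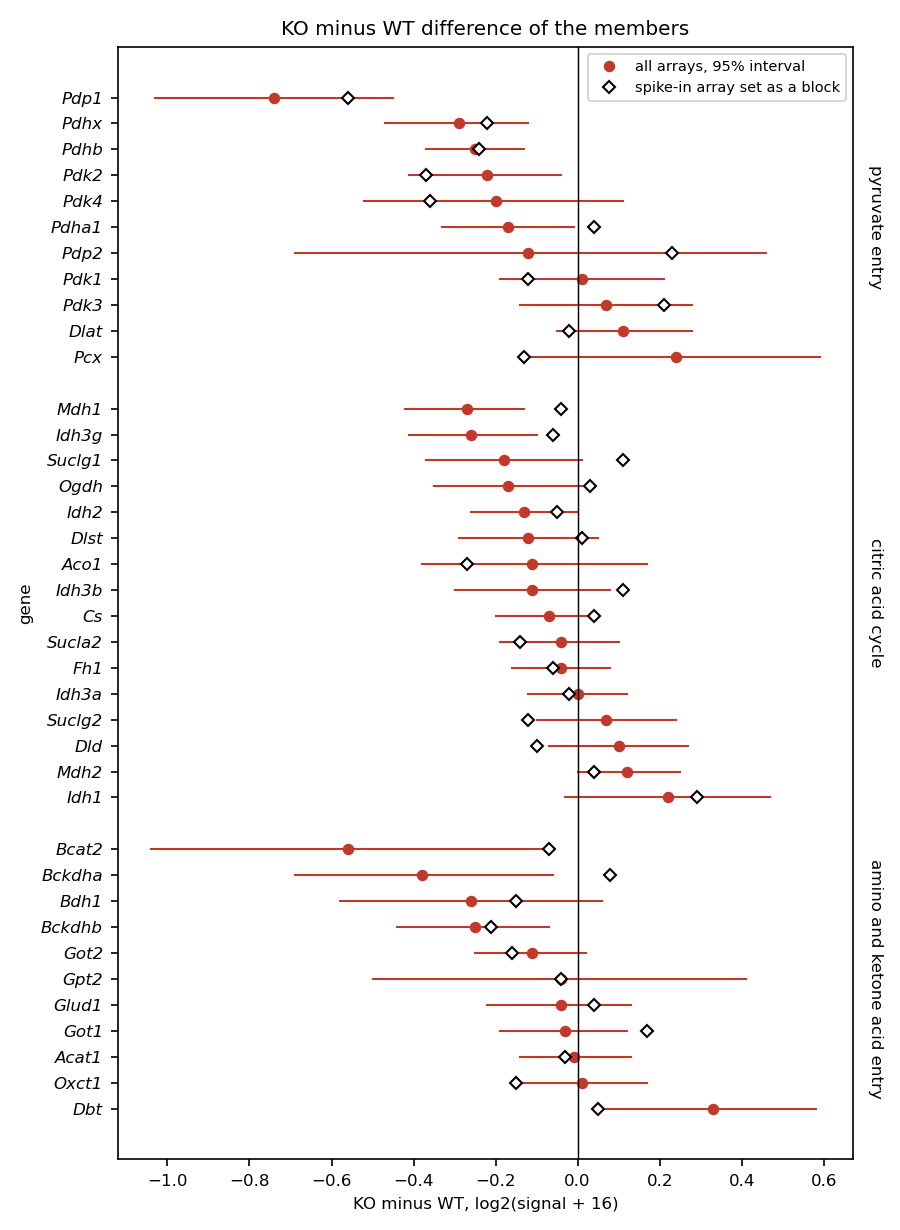
KO minus WT difference on the log2(signal + 16) scale for the 38 members, by role; filled circles with lines are limma's estimate over all arrays with its 95% interval, and open diamonds the estimate with the spike-in array set as a block. In the pyruvate group the diamonds of Pdp1, Pdhx, Pdhb, Pdk2 and Pdk4 stay below 0, while those of Mdh1 (-0.04), Idh3g (-0.06) and Bcat2 (-0.07) lie close to 0 and that of Bckdha (0.08) lies above it.

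The 11 genes of amino acid and ketone entry had a median of -0.04, with 9 below 0, and none was called between KO and WT. The subunits of the branched-chain keto acid dehydrogenase, the committed step of leucine, isoleucine and valine breakdown, differed in direction. Bckdhb, an E1 subunit, read 1501.2, 1812.8 and 1798.5 on the WT arrays, 1522.4, 1458.3 and 1497.7 on the HET arrays and 1365.2, 1422.5 and 1480.2 on the KO arrays. KO was below WT without overlap, by -0.25 ± 0.09 (limma adjusted p = 0.14; -0.21 with the block).

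Bckdha, the other E1 subunit, read 494, 516 and 650 on the WT arrays, 533, 342 and 432 on the HET arrays and 419, 397 and 446 on the KO arrays. KO lay below WT, at 76.0% of its mean, and HET replicate 1 stood with WT. The difference was -0.38 ± 0.15 (limma adjusted p = 0.199), and with the array set as a block it turned to 0.08 ± 0.23. Dbt, the E2 core, read 535, 519 and 437 on the WT arrays, 486, 589 and 591 on the HET arrays and 578, 699 and 606 on the KO arrays. KO lay above WT without overlap and HET replicate 1 again stood with WT. Dbt differed by 0.33 ± 0.12, which did not pass (limma adjusted p = 0.167), and the block brought this to 0.05.

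Bcat2, the mitochondrial transaminase that takes the amino group off branched-chain amino acids, read 242, 303 and 263 on the WT arrays, 258, 223 and 142 on the HET arrays and 239, 189 and 120 on the KO arrays, and was singled out after its values were seen. KO was below WT, with a wide spread within HET and KO. The difference of -0.56 ± 0.23 did not pass (limma adjusted p = 0.206), and the block brought it to -0.07.

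Gpt2, the mitochondrial alanine transaminase, was dim and was the member of its role with the smallest p between KO and HET. It read 72.3, 66.4 and 69.2 on the WT arrays, 94.5, 85.3 and 104.0 on the HET arrays and 79.7, 54.4 and 68.0 on the KO arrays. HET stood above both other genotypes without overlap, but neither HET minus WT (0.37) nor KO minus HET (-0.41) was called by limma (adjusted p = 0.536 and 0.989). The aspartate transaminases Got1 and Got2 gave -0.03 and -0.11 between KO and WT, and Glud1, glutamate dehydrogenase, gave -0.04 (0.17, -0.16 and 0.04 with the block). Of the ketone enzymes, Bdh1, which interconverts the 2 main ketone bodies, gave -0.26 with overlapping arrays (-0.15 with the block). Oxct1, the rate-limiting enzyme of ketone use, gave 0.01 and Acat1, the mitochondrial acetoacetyl-CoA thiolase, -0.01 (-0.15 and -0.03 with the block). The dimmer Acat1 probe sets gave 0.19 and 0.23, with every KO array above every WT array. Neither was called in the fit of each probe set on its own (limma adjusted p = 0.238 and 0.259). In them HET replicates 2 and 3 lay above HET replicate 1 by 0.23 and 0.13.

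Loss of 1 copy left all members uncalled. HET minus WT gave 0 calls among members and 0 among all genes (0.00%) in limma's fit, with 7 members (18.4%) and 11.5% of all genes at an unadjusted p under 0.05. The median was -0.04 for members and -0.01 for all genes. Arrays did not overlap for 3 members (7.89%), against 13.7% of all genes. Pdp1 and Pdhb were lower, as 7.41% of all genes were, and Gpt2 was higher, as 6.29% were. Without HET replicate 1, Mdh1 was called, as were 574 genes in all (4.41%). The HET arrays then left lie wholly in the second set and the WT arrays in the first. Genotype and array set cannot be told apart in that fit. Within the first set alone, where HET is the single replicate 1, HET minus WT was -0.0 for Mdh1.

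KO minus HET is the comparison in which most arrays share a set, the 3 KO and 2 of the 3 HET arrays. It gave 0 calls among members and 2 among all genes (0.0154%) in limma's fit, with 4 members (10.5%) and 4.81% of all genes at an unadjusted p under 0.05. The 4 were Pdp1 (-0.33), Pdhx (-0.21), Pdk1 (-0.20) and Pdk2 (-0.19), all of pyruvate entry. KO arrays lay wholly below HET arrays for 5 members (13.2%), against 5.73% of all genes. These were Pdp1, Pdhb, Pdhx, Pdk2 and Gpt2, of which 4 belong to the 11 genes of pyruvate entry. KO lay wholly above HET for 1, Mdh2, against 4.76% of all genes. Within the second set alone, KO minus HET was -0.27 for Pdp1, -0.24 for Pdk2, -0.19 for Pdhx and -0.11 for Pdhb. The same within-set value was -0.04 for Mdh1, -0.03 for Idh3g and 0.12 for Bckdha. Within HET, the second-set arrays minus the first-set array gave -0.23 for Mdh1, -0.19 for Idh3g, -0.46 for Bckdha and 0.27 for Dbt, each the same sign as KO minus WT. For Pdp1 this HET value was -0.18, for Pdhb -0.01 and for Pdhx -0.07, also with the sign of KO minus WT. For Pdk2 it was 0.15, the opposite sign. Over all members the HET value had the sign of KO minus WT in 29 of 38 (76.3%), and over all genes tested in 62.8%. No p is given for these within-set values, since they rest on 1 or 2 HET arrays. The KO minus HET values within the second set are also those of the block fit, and so no separate look at these genes. The block's KO minus WT values rest on the same arrays, with HET replicate 1 as the only first-set HET array. The genes named here were chosen from values on the same KO arrays.

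Several members are measured by more than 1 probe set, and these often disagreed. Of 84 probe sets that name 1 member each, 76 lay at or above the level, and 23 members had more than 1 such probe set. In 9 of these all had one sign between KO and WT, and in 14 they differed. For neither called member was the other probe set called. The dimmer probe set of Pdp1, between 31.2 and 92.5, gave 0.01, and that of Pdhb, between 213 and 472, gave 0.04, both with overlapping genotypes.

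The widest disagreement was in Oxct1. Its 2 brightest probe sets gave 0.01 and 0.03, and 2 dimmer ones gave 0.98 and 1.08. One of the dimmer ones read 569, 581 and 461 on the WT arrays, 483, 1211 and 1127.9 on the HET arrays and 1313.3, 970 and 955 on the KO arrays. The other read 120, 94.1 and 81 on the WT arrays, 125, 214 and 253 on the HET arrays and 271, 186 and 218 on the KO arrays. In both, HET replicate 1 stood with WT and the other HET arrays with KO. The dimmest was called when each probe set was tested on its own (limma adjusted p = 0.0474), and Oxct1 is given here after its values were seen. Mdh1 had a dimmer probe set at 4222.4, 4454.3 and 4177.1 on the WT arrays, 3949.3, 6967.5 and 6721.4 on the HET arrays and 6849.4, 6273.5 and 5970.8 on the KO arrays. Its KO minus WT difference of 0.57 was not called and had the opposite sign to the brightest probe set, and HET replicate 1 again stood with WT. Another Mdh1 probe set was nearly as bright as the brightest. It read 15311.3, 15564.0 and 15323.9 on the WT arrays, 13221.1, 16303.0 and 15852.4 on the HET arrays and 15475.2, 16335.5 and 15049.7 on the KO arrays. Its KO minus WT difference was 0.02, with overlapping arrays. Among the 38 probe sets other than the brightest, 10 had HET replicates 2 and 3 above HET replicate 1 by more than 0.5 on the log2 scale, and none of the brightest had. Some of the 10 were dim, such as probe sets of Pdp1 (31.2 to 92.5) and Idh3a (4.1 to 90.2). In the other direction a dim probe set of Gpt2 gave -0.61. The share over all probe sets is not given here, so the count says nothing particular to the members.

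**Figure D4:**
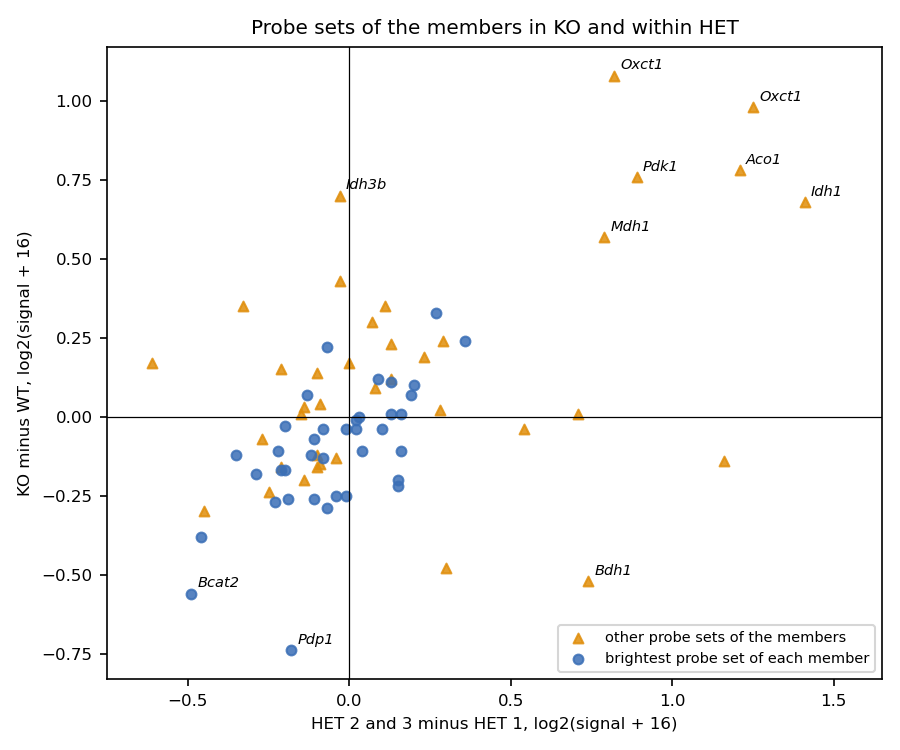
KO minus WT difference (vertical axis) against the difference of HET replicates 2 and 3 from HET replicate 1 (horizontal axis), both on the log2(signal + 16) scale, for the 76 probe sets of the members at or above the level; circles are the brightest probe set of each member and triangles the others. Triangles of Oxct1, Aco1, Idh1, Pdk1 and Mdh1 lie at the upper right, high in KO and in the HET arrays of the same set, while Pdp1 lies lowest, at -0.74.

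A further list held genes of the same routes that are no members. Of these genes 37 were tested, and others of the list were not analysed here. None was called between KO and WT, 28 lay below 0 and 9 above, with a median of -0.14, or -0.02 with the block. The share below 0 was 75.7%, beside 51.6% of all genes. KO arrays lay wholly below WT for 13 (35.1%, beside 13.9%) and wholly above for 3 (8.11%, beside 11.1%). With the block 16 of the 37 turned sign (43.2%). Sdhb, the iron-sulfur subunit of succinate dehydrogenase, read 15228.7, 15619.4 and 16062.9 on the WT arrays, 15295.0, 13292.9 and 13881.8 on the HET arrays and 13080.7, 12776.3 and 13751.5 on the KO arrays. HET replicate 1 stood with WT, and the KO minus WT difference of -0.24 did not pass (limma adjusted p = 0.0582; -0.07 with the block).

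Auh, a hydratase of leucine breakdown, read 1013.8, 744 and 826 on the WT arrays, 744, 755 and 705 on the HET arrays and 628, 625 and 656 on the KO arrays. KO lay below all other arrays, by -0.42 against WT (limma adjusted p = 0.0698; -0.39 with the block). Aldh6a1, an aldehyde dehydrogenase of valine breakdown, read 238, 147 and 252 on the WT arrays, 195, 479 and 557 on the HET arrays and 494, 401 and 342 on the KO arrays. HET replicate 1 stood with WT, and the difference of 0.93 was not called (limma adjusted p = 0.109) and turned to -0.41 with the block. Mpc1, a subunit of the mitochondrial pyruvate carrier, read 3150.2, 3387.8 and 3097.1 on the WT arrays, 3393.3, 3881.7 and 3537.9 on the HET arrays and 3919.8, 3539.0 and 3730.4 on the KO arrays. KO lay above WT by 0.21, which was not called (limma adjusted p = 0.14; 0.09 with the block).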

How the data were processed

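Total RNA of ventricles was hybridised to 9 Affymetrix arrays, 3 per genotype. What was deposited is 1 MAS5 signal per probe set and array, an intensity on a linear scale, per the submitters' processing notes, which give no version; the arrays share a trimmed mean and no other normalization between them is recorded. Genes were named by the platform annotation and RefSeq. Tests used log2(signal + 16) of the deposited signals, a scale on which dim genes change less than on the linear one. The brightest probe set per gene was used, and genes under the 40th percentile of probe sets (5.24 on the log2 scale) were left out, which left 13028. limma 3.58.1 (R 4.3.3; 1 mean per genotype in lmFit, and eBayes with a trend on intensity; two-sided) was adjusted over all genes tested by Benjamini-Hochberg, with a call at an adjusted p under 0.05, and was tested on simulated data. The simulated arrays held no array sets, so that test cannot speak to the split between WT and KO. The array sets were cut at the widest gap in the thr to dap ratio, and with the block 5 residual degrees of freedom remain of 6. Members, lists, tests and this split were chosen with earlier results of these data known. Values on every array are given for called members, the 3 of each role with the smallest KO minus WT p, the 1 with the smallest p in each other comparison, Esrrg, and the 2 non-members with the smallest p in each direction; others so given are named as such. The number of arrays limits the precision. Figures used matplotlib 3.10.9.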

Additional observations from a re-analysis of the deposited data

How the results depend on the processing

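Of the members called between KO and WT (2), 1 was left with quantile normalization, without the filter, and with the replicate number as a block. In turn 1.3%, 0.467% and 0.975% of all genes were called in these settings, beside 1.62% in the main fit. None was left with the array set as a block, with probe sets averaged per gene, without the intensity trend, or with each array shifted to one median of all probe sets, which was chosen after seeing the data. From 0.00768% to 0.184% of all genes were called in these settings. With each probe set tested on its own the count stayed at 2, but the pair was Pdp1 and Oxct1, the latter higher in KO, and Pdhb was not called (limma adjusted p = 0.0512). Of all 23540 probe sets tested in that way, 0.79% were called. There were 5 with array quality weights and with only the 6 arrays compared, where 4.7% and 5.93% of all genes were called. When each array was left out in turn there were 0 to 5, beside 0.0768% to 6.45% of all genes. Pdp1 was called in 14 of 23 alternatives (limma adjusted p from 0.00484 to 0.782, values from -0.80 to -0.36) and Pdhb in 9 (0.00547 to 0.764, -0.28 to -0.11). The genes called in all ranged from 1 with the array set as a block to 840 without HET replicate 1. HET minus WT gave 0 members, or 0 to 1 when an array was left out, and KO minus HET 0 in every alternative. With the array set as a block the sign of KO minus WT turned for 17 of the 38 members; among the genes given on every array by rule, Bckdha turned to 0.08 and Aldh6a1 to -0.41, and with probe sets averaged per gene Mdh1 and Gpt2 turned to 0.08 and 0.07 in KO minus HET. Esrrg was not called with the mean of its probe sets (-0.72, limma adjusted p = 0.134) or with the array set as a block (-1.89, limma adjusted p = 0.168). Over all genes tested, samples of one replicate number did not deviate together (correlations from -0.043 to 0.046), nor did those of different numbers (-0.06 to 0.079). Correlations over all genes cannot show a pairing that touches few of them, and the labels give no litter. The main fit therefore pairs no arrays by their replicate numbers. The block on them took the genes called from 211 to 127. The cause of these changes was not tested.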
